A study of Rattus norvegicus with 12 samples.

Results

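The sodium pump (Na,K-ATPase) and its FXYD regulators were followed in weanling rat mammary gland through 8 genes of 16511 in the count table, 5 Fxyd genes and 3 beta subunit genes. The genes were picked on the measured values of this contrast, because Fxyd2 was higher with the butter diet and its groups did not overlap, and the remaining 7 came with it as family. By their labels the 12 libraries were made from whole snap-frozen mammary glands of rats at postnatal day (PND) 21, 1 gland per litter. The study's methods name the same deposit for RNA of microdissected epithelium from high-butterfat litters with and without bisphenol A. The labels, which do not mention microdissection and name a butter and a control diet, are followed here. HFB libraries (high fat butter, 6) came from litters exposed to that diet before birth, and CTL libraries (control, 6) from litters on the AIN control diet. The bounds that the labels give for the exposure disagree with each other, and the strain, Sprague-Dawley in the study's methods, is not in the labels. Counts per library ran from 2320267 to 2944680, with a median of 2660268 for HFB. Levels are given as CPM, a gene's count scaled to a common library size after trimmed-mean (TMM) normalization. A count of 3, the limit that a count of 0 allows, came to between 1.02 and 1.29 CPM on the total count depending on the library, for counting error alone. All 8 genes had counts in all 12 libraries and all 8 passed the filter on low counts, which left 9382 genes tested.

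The pump exchanges intracellular sodium for extracellular potassium at the cost of ATP, and the gradient it builds drives sodium-coupled transport of nutrients and ions. It needs a glycosylated beta subunit to fold and to reach the plasma membrane. FXYD proteins, small single-pass membrane proteins named for a shared sequence motif, join the assembled pump and tune its affinity for its ions according to the tissue. Mammary epithelium keeps the pump on its basolateral face, and fat, muscle, nerve and leukocytes, all present in a whole gland, carry their own sets of subunits.

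The libraries HFB 6 and CTL 14 stood apart from the other 10 in the summed levels of their lymphoid, adipocyte and fibroblast genes. Summed over 9 of 10 listed lymphoid genes found in the table, levels reached 1161 CPM in HFB 6 and 1170 CPM in CTL 14, against 8.55 to 312 CPM in the other libraries. Adipocyte genes, 8 of 8 found, summed to 19149 CPM in HFB 6 and 15700 CPM in CTL 14, against 30200 to 38089 CPM elsewhere. Fibroblast genes, 5 of 5 found, summed to 19429 CPM in HFB 6 and 18721 CPM in CTL 14, against 26235 to 42917 CPM elsewhere. The lymphoid sum was thus highest and the adipocyte and fibroblast sums lowest in the same pair of libraries. Not every fibroblast gene was lowest there, since Col1a1 and Lum had 10627 and 358 CPM in HFB 6. In HFB 2 they had 10571 and 323 CPM. In whole tissue, fewer cells of a type and less RNA per cell cannot be told apart. The slopes called for the 8 genes are given with and without these libraries.

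Fxyd2 encodes the gamma subunit, best known in the kidney tubule, where it lowers the pump's affinity for sodium. Fxyd2 (Entrez gene 29639) had a lowest, median and highest value of 17.2, 23.2 and 26.5 CPM in the HFB libraries and of 10.4, 13.8 and 16.8 CPM in the CTL libraries. The means were 22.1 ± 3.96 CPM with HFB and 13.5 ± 2.35 CPM with CTL (SD, n = 6 each). HFB was above CTL in every library, by a small margin at the edge of the groups, 17.2 CPM in HFB 1, from 42 counts, and 16.8 CPM in CTL 11, from 40 counts. The exact Poisson intervals (95%) of those libraries, 12.4 to 23.2 CPM and 11.98 to 22.8 CPM, overlap almost wholly. They cover counting error alone. The log2 difference was 0.71 (SE 0.18), a description of the choice and not a test of it. The groups also did not overlap in CPM on the total count or on DESeq2 size factors.

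Among all 9382 genes tested, 3 had HFB groups wholly above CTL, 0.0320% of them, and nothing is read from that share since it is the rule that picked Fxyd2. The other two, seen only after the values were known, were Cdc42ep1 (log2 difference 0.45), a Cdc42 effector, and Zfpm1 (0.47), a cofactor of GATA factors. Without HFB 6 and CTL 14 the log2 difference of Fxyd2 was 0.69 (SE 0.19), and with the skeletal muscle, epithelial and lymphoid scores as covariates it was 0.78 (SE 0.19). Both values describe the contrast that picked the gene and are no test of it.

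**Figure D1:**
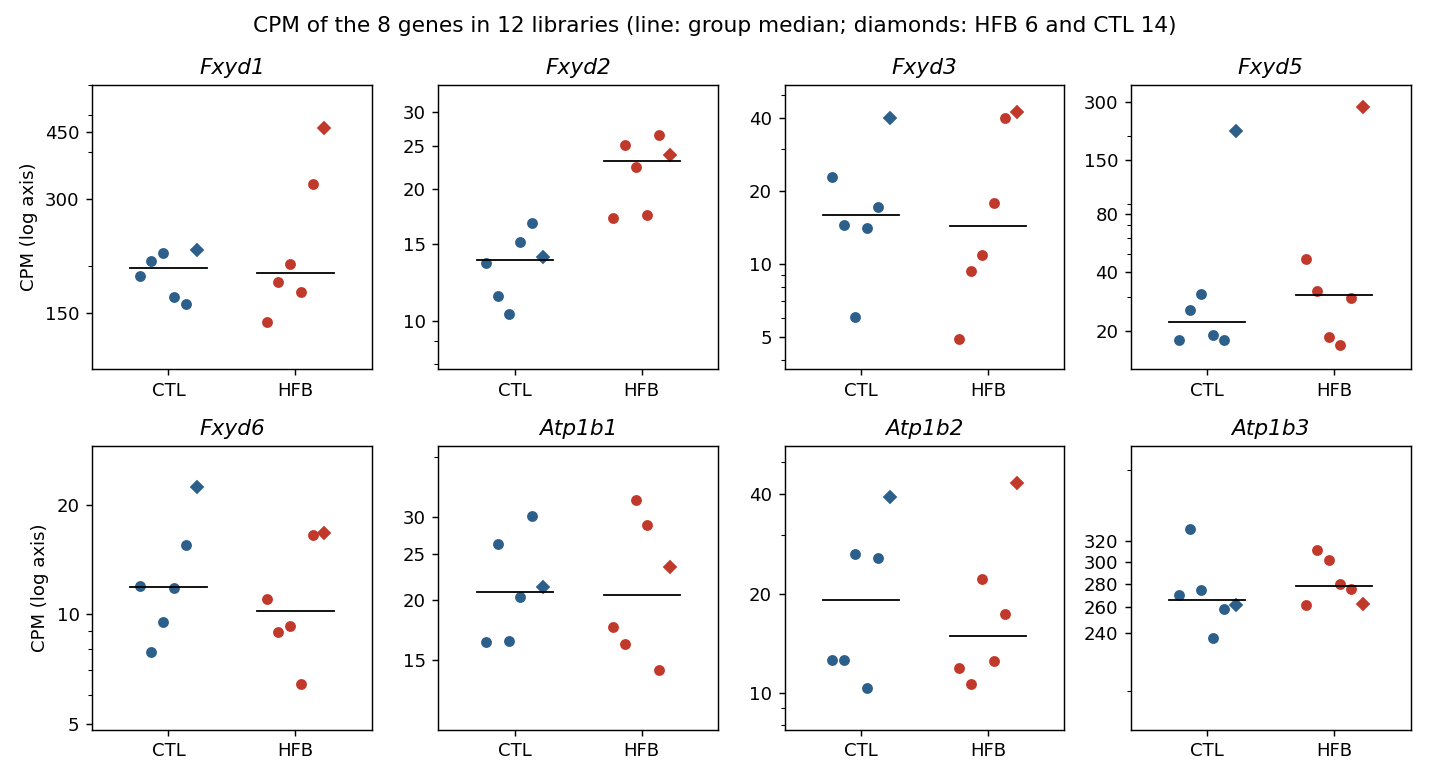
CPM of the 8 genes on log axes in 6 CTL (blue) and 6 HFB (red) libraries, with 1 point per library, the group median as a line and HFB 6 and CTL 14 as diamonds. The Fxyd2 groups do not overlap, 17.2 CPM being the lowest HFB and 16.8 CPM the highest CTL value, while the groups of the other 7 genes overlap.

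Fxyd1 encodes phospholemman, the pump regulator of heart and skeletal muscle that protein kinases A and C phosphorylate. Fxyd1 ran at 142, 191 and 462 CPM (lowest, median, highest) in HFB and at 159, 197 and 220.0 CPM in CTL. The groups overlapped and their medians lay close together, and the upper HFB values came from HFB 6 at 462 CPM and HFB 5 at 329 CPM. The log2 difference was 0.37 (SE 0.26, edgeR adjusted p = 0.999), 0.088 (SE 0.20) without HFB replicate 6 and 0.14 (SE 0.20) without HFB 6 and CTL 14.

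Fxyd3 encodes a regulator found in epithelia, first isolated from mouse mammary tumours. It spanned 4.91, 14.3 and 42.3 CPM in HFB and 6.05, 15.9 and 40.3 CPM in CTL. The groups covered nearly the same range, high in HFB 5, HFB 6 and CTL 14 and low in HFB 1 and CTL 9. The log2 difference of 0.12 (SE 0.53, edgeR adjusted p = 0.999) was smaller than its error. With the skeletal muscle, epithelial and lymphoid scores as covariates the difference was 0.40 (SE 0.21, edgeR adjusted p = 0.56) and did not pass.

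Fxyd5 encodes dysadherin, which weakens adhesion between epithelial cells and is also found on leukocytes. Fxyd5 took 17.1, 30.8 and 281 CPM in HFB and 17.9, 22.4 and 212 CPM in CTL. Both highest values belonged to HFB 6 and CTL 14, and the other 10 libraries lay between 17.1 and 46.6 CPM. The log2 difference of 0.39 (SE 0.84, edgeR adjusted p = 0.999) turned to -0.93 without HFB replicate 6 and became 1.69 without CTL replicate 14, and it was 0.37 (SE 0.27) without both.

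Fxyd6 encodes phosphohippolin, known from brain and inner ear. It lay at 6.41, 10.2 and 16.7 CPM in HFB and at 7.86, 11.9 and 22.4 CPM in CTL. The groups overlapped, CTL 14 being highest of all. The log2 difference was -0.20 (SE 0.30, edgeR adjusted p = 0.999) and turned to 0.033 without CTL replicate 14.

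Of the beta subunits, Atp1b1 is the widespread form that also bridges neighbouring epithelial cells, Atp1b2 is an adhesion molecule of glia found in some muscle as well, and Atp1b3 is widespread and present on leukocytes. Atp1b1 had 14.2, 20.6 and 32.6 CPM in HFB and 16.4, 20.8 and 30.2 CPM in CTL, groups that overlapped almost throughout. Atp1b2 had 10.7, 14.9 and 43.1 CPM in HFB and 10.3, 19.1 and 39.2 CPM in CTL, and its highest libraries were HFB 6 and CTL 14. Atp1b3 had 261, 278 and 311 CPM in HFB and 236, 266 and 332 CPM in CTL. Its highest library exceeded its lowest by 1.41-fold, and 1.24% of the tested genes had a lower coefficient of variation over the 12 libraries, against 99.4% for Fxyd5 and 55.7% for Fxyd2. The log2 differences were 0.025 (SE 0.24), -0.11 (SE 0.41) and 0.051 (SE 0.11) in that order, with an edgeR adjusted p of 0.999 for each.

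Diet passed the test for none of the 7 genes other than Fxyd2, 5 of which had values above 0 and 2 below, with a median log2 difference of 0.051. Without TMM factors, on the total count, the difference of mean CPM was above 0 for 2 of the 7 and below 0 for 5, but the whole table shifted the same way, 3084 of the 9382 genes being higher with HFB on the total count and 4694 with TMM, so the turns say nothing about these genes. With each library left out in turn the value ran from -0.22 to 0.49 for Fxyd3, from -0.12 to 0.14 for Atp1b1 and from -0.51 to 0.18 for Atp1b2, so those signs depend on single libraries. Over the whole table edgeR called 0 of 9382 genes (0%), 220 had an unadjusted p under 0.05, and the median log2 difference was 0.00021. DESeq2 and limma-voom also called 0, with 271 and 222 genes at an unadjusted p under 0.05. With no difference in any gene, a share of 0.05 of the 9382 genes is the average for such a count. The counts of 220, 271 and 222 were smaller shares than that. In edgeR the count ran from 135 to 587 with each library left out. It was 430 without HFB 6 and CTL 14 and 840 with the skeletal muscle, epithelial and lymphoid scores as covariates. The 840 were a larger share than 0.05, with 0 genes called. These p-values measure the spread between glands of different litters.

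**Figure D2:**
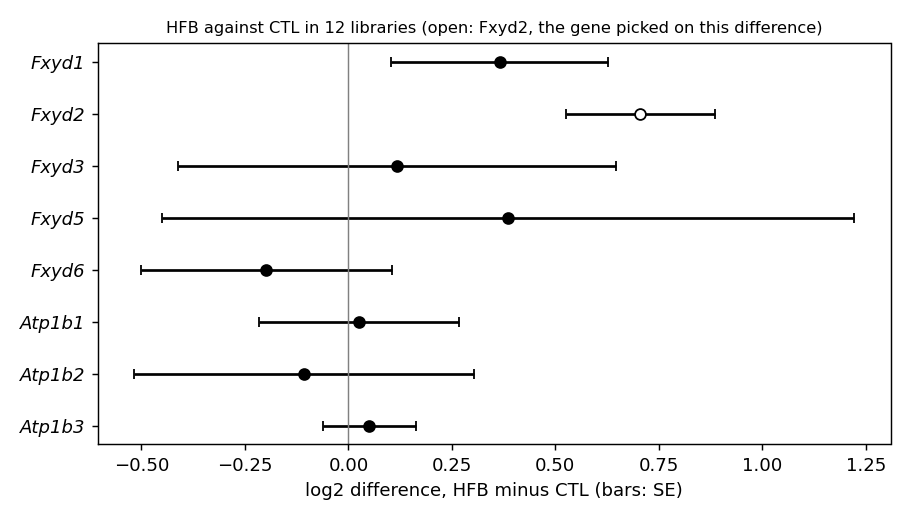
Log2 difference of HFB minus CTL for the 8 genes over 12 libraries, with the SE as bars. Fxyd2, open, is the gene picked on this difference at 0.71, and the bars of 6 of the other 7 genes cross 0, Fxyd1 at 0.37 being the exception.

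Of the rest of the pathway, 30 listed genes were in the table and 17 were tested; none passed the diet test in either direction, 6 having a higher and 11 a lower value with HFB, with a median log2 difference of -0.067. Fxyd7, a regulator of brain pumps and a neighbour of Fxyd5 and Fxyd1, was not tested because of its low counts. It reached 29.1 CPM in HFB 6 and 11.6 CPM in CTL 14, with 0.409 to 3.08 CPM in the other 10 libraries. Fxyd4 and Atp1b4 stayed at or under 3.77 CPM.

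Since the glands varied in makeup, each gene's slope on a tissue score (the mean log2 CPM of that tissue's marker genes) was fitted with diet as a covariate, a measure that the choice of Fxyd2 did not use. Of the scores' own genes, 8 epithelial, 9 skeletal muscle, 8 adipocyte and 3 lymphoid genes are among the genes tested. The lymphoid score averages all 9 lymphoid genes found, also those left out of the test for low counts. Epithelial genes, 9 of 10 found with Krt8 the most abundant and Cldn3 at 0 throughout, summed to 122, 288 and 647 CPM in HFB and 196, 442 and 656 CPM in CTL (lowest, median, highest). Fxyd3 rose with that score by 1.33 log2 per unit (SE 0.17, edgeR adjusted p = 0.0018), the only one of the 8 genes to pass, where 1.13% of all genes rose and 0.107% fell. Without HFB 6 and CTL 14 its slope was 1.16 (SE 0.16, edgeR adjusted p = 0.0042), and with the other 3 scores added it was 0.72 (SE 0.30) and no longer passed (edgeR adjusted p = 0.72). Fxyd2 had a slope of 0.16 (SE 0.12, edgeR adjusted p = 0.399) and did not pass. Over the whole table the 116 genes called on that score became 51 to 789 with each library left out and 427 in DESeq2.

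Lymphoid genes, with Lck highest in the mean over the 12 libraries at 5.50 to 218 CPM and Cd79b above it in HFB 6 and CTL 14 (262 and 230 CPM), had median sums of 81.6 CPM in HFB and 31.6 CPM in CTL. Fxyd5 rose with the lymphoid score by 0.57 log2 per unit (SE 0.055, edgeR adjusted p = 1.22e-05), 1 of 8 genes where 16.4% of all genes rose and 9.43% fell. Without HFB 6 and CTL 14 the slope was 0.26 (SE 0.072) and did not pass (edgeR adjusted p = 0.21), nor did it with the other 3 scores added, at 0.35 (SE 0.16, edgeR adjusted p = 0.9999). The gene's call on the score rests on those libraries. The score also depends on its prior count, the small count added before the log. With 0.5 in place of 2 the slope of Fxyd5 was 0.49 (SE 0.054, edgeR adjusted p = 6.03e-05), and 1992 genes were called. Over the whole table the 2419 genes called on that score became 325 to 3544 with each library left out. Of the 17 pathway genes tested, 3 rose with the lymphoid score and 1 fell. The phosphate importer gene Slc20a1 rose most steeply among them, by 0.28 log2 per unit (SE 0.046, edgeR adjusted p = 0.0011). Without HFB 6 and CTL 14 none of the 17 passed on that score, and the slope of Slc20a1 was 0.042 (SE 0.065, edgeR adjusted p = 0.896).

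**Figure D3:**
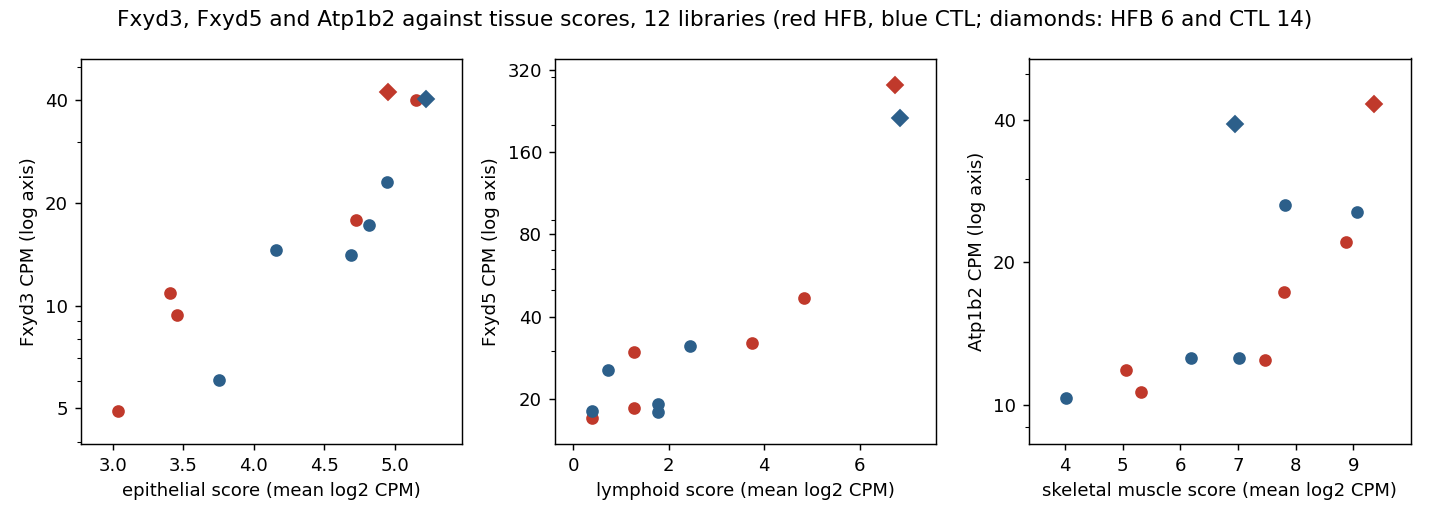
CPM of Fxyd3, Fxyd5 and Atp1b2 (log axes) against the epithelial, lymphoid and skeletal muscle scores (mean log2 CPM) in 12 libraries, HFB red and CTL blue, HFB 6 and CTL 14 as diamonds. Fxyd3 climbs along the epithelial score across both diets, while Fxyd5 is above 46.6 CPM only in the diamond libraries.

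Adipocyte genes, led by Fabp4 with 11333 to 25119 CPM and so abundant in every one of these whole glands, summed to medians of 34757 CPM in HFB and 32750 CPM in CTL. Of the 8 genes, 5 fell as this score rose, where 27.5% of all genes fell and 27.4% rose. Fxyd5 fell by 2.18 log2 per unit (SE 0.17, edgeR adjusted p = 6.68e-07), Fxyd3 by 1.06 (SE 0.31), Atp1b2 by 0.87 (SE 0.22), Fxyd6 by 0.64 (SE 0.18) and Fxyd1 by 0.52 (SE 0.17), with edgeR adjusted p-values of these 4 between 0.0040 (Atp1b2) and 0.0162 (Fxyd1). Fxyd2, Atp1b1 and Atp1b3 did not pass. With the other 3 scores added none of the 5 passed. The slopes of Fxyd1 (0.19), Fxyd6 (0.023) and Atp1b2 (0.12) turned above 0, while those of Fxyd3 (-1.68) and Fxyd5 (-0.97) stayed below. Of the 17 pathway genes tested, 4 rose with the adipocyte score and 3 fell. Without HFB 6 and CTL 14 edgeR called 0 genes in the table on the adipocyte score (809 had an unadjusted p under 0.05), so all 5 calls rest on those libraries, as do those of the pathway genes. The slopes were then -0.53 (SE 1.26) for Fxyd5, -4.30 (SE 1.72) for Fxyd3, 0.28 (SE 1.42) for Atp1b2, -2.80 (SE 0.96) for Fxyd6 and -0.96 (SE 0.85) for Fxyd1, with wider errors than before. The adipocyte and lymphoid scores ran opposite to each other over the 12 libraries (r = -0.83 over deviations from the diet means, as a description) but not without HFB 6 and CTL 14 (r = -0.091), so over all libraries the slopes of a gene on both scores share that pair.

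Skeletal muscle genes, 9 of 10 found and led by Acta1, summed to 369, 2315 and 7177 CPM in HFB and 186, 1427 and 5982 CPM in CTL. Atp1b2 had a slope of 0.35 (SE 0.096, edgeR adjusted p = 0.298) on that score and did not pass, though without CTL replicate 14 it was 0.34 and passed (edgeR adjusted p = 0.048). Without HFB replicate 6 it was 0.27 (edgeR adjusted p = 0.9999) and without both 0.27 (edgeR adjusted p = 0.088), and neither passed. None of the 8 genes passed with all libraries in, where 0.821% of all genes rose and 0% fell (0 genes in edgeR with 191 at an unadjusted p under 0.05, 6 in DESeq2 and 0 in limma-voom). With the skeletal muscle, epithelial and lymphoid scores as covariates of diet, none of the 7 genes other than Fxyd2 passed, Atp1b2 coming nearest at -0.42 (SE 0.17, edgeR adjusted p = 0.54). The part that any tissue list played in the Fxyd2 difference was not tested.

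**Figure D4:**
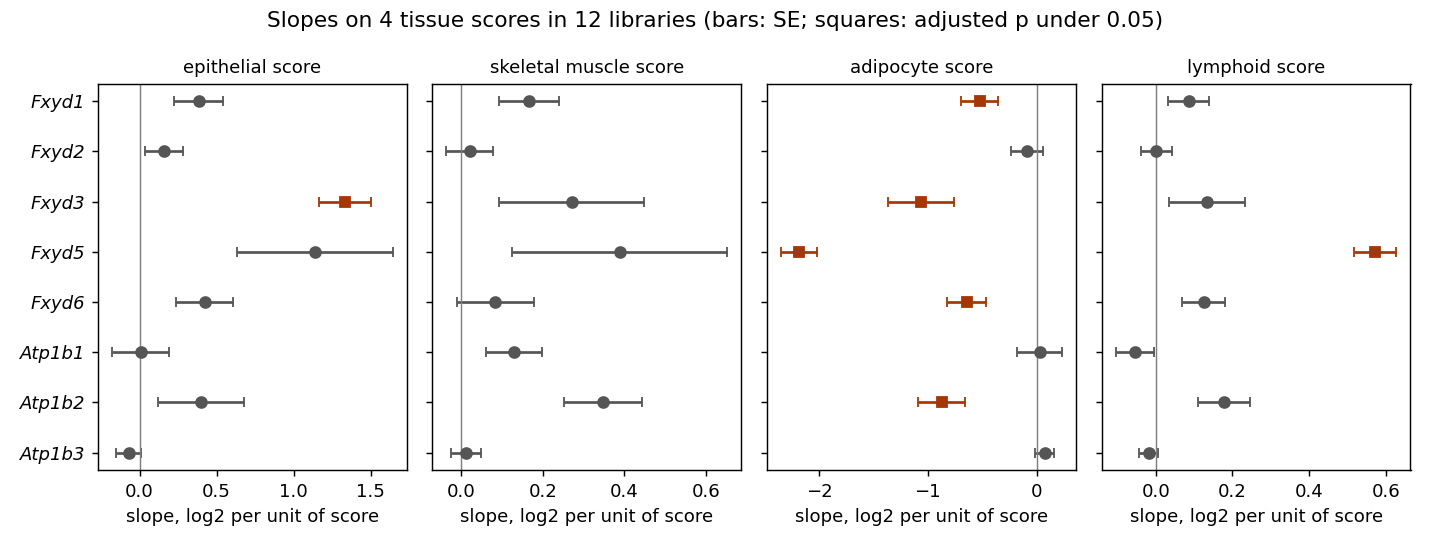
Slopes of the 8 genes, in log2 per unit of score, on the epithelial, skeletal muscle, adipocyte and lymphoid scores over 12 libraries with diet as a covariate; bars are SE and squares passed the edgeR test. Fxyd3 passed on the epithelial score at 1.33 and Fxyd5 on the lymphoid score at 0.57.

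Myoepithelial genes summed to medians of 85.0 and 95.5 CPM in HFB and CTL, macrophage genes, led by Csf1r, to 311 and 279 CPM, and fibroblast genes, led by Col3a1, to 30928 and 34633 CPM. Among the myoepithelial genes Oxtr was highest in the mean over the 12 libraries but fell to 0.797 CPM in HFB 6 and 2.10 CPM in CTL 14, where Krt17 was highest (67.4 and 81.3 CPM). Endothelial genes had medians of 124 and 140 CPM. Their sums of 303 CPM in HFB 6 and 317 CPM in CTL 14 came mainly from Pecam1 (255 and 239 CPM, with 27.3 to 60.3 CPM elsewhere), while Tek lay within its range elsewhere in both and Cdh5 was at its lowest, 2.79 CPM, in HFB 6. Schwann cell genes, led by Pmp22, had medians of 582 and 608 CPM and 857 CPM in CTL 14, the highest of the 12.

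Likeness between genes was read from Pearson's r of log2 CPM deviations from the diet means over the 12 libraries, as a description. The nearest genes are those with the highest r in a search of the 9382 genes tested, the 8 genes aside. The highest r of so large a search over 12 libraries is high through the search itself. No r was tested. Fxyd2 was nearest to Rcl1 (0.83), Slc16a13 (0.82) and Ppil3 (0.78). Fxyd3 was nearest to Fam83f (0.98), Sox10 (0.97) and the keratin gene Krt15 (0.96). Fxyd5 was nearest to Mob3a, Mical1 and Bcl2a1 (0.99 each), and without HFB 6 and CTL 14 these were 0.89, 0.86 and 0.90. Atp1b2 was nearest to Rpl7 (0.94), and to the muscle genes Des (0.94) and Tpm2 (0.94), and without that pair of libraries these were 0.85, 0.89 and 0.85. Fxyd1 was nearest to Tle5 (0.98), Tmem205 (0.97) and Tmem223 (0.96), and Fxyd6 to Brf1 (0.95), Lancl1 (0.95) and Cdca4 (0.93). For the other beta subunits no r reached that of Fxyd6 with Cdca4, the nearest being Ap1s2 (0.87), Matr3 (0.87) and Pdzk1 (0.85) for Atp1b1 and Prkrip1 (0.86), Timm29 (0.80) and Gdi2 (0.80) for Atp1b3. Among the 8 genes themselves Fxyd5 and Atp1b2 had an r of 0.72, which was -0.077 without HFB 6 and CTL 14, whereas Fxyd2 and Fxyd6, neighbouring genes in the RefSeq order, had 0.61 with and 0.69 without them. In the other cluster of Fxyd genes r went from 0.62 to 0.035 for Fxyd1 and Fxyd5, from 0.47 to -0.54 for Fxyd3 and Fxyd5 and from 0.70 to 0.57 for Fxyd1 and Fxyd3 when they were left out. Fxyd2 and Fxyd3, on different chromosomes, had 0.54 with and 0.56 without that pair of libraries. A kept r was thus not particular to neighbouring genes.

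In that gene order (assembly GRCr8, used for neighbours alone since the counts were made on rn4) Fxyd5, Fxyd7, Fxyd1 and Fxyd3 lie in one cluster, with Lgi4 between Fxyd1 and Fxyd3, and Fxyd6 adjoins Fxyd2. RefSeq promoter sequence was at hand for 5 of the 8 genes. The 250 bases upstream of the start are shown for Fxyd5, the gene with the widest spread between libraries, for Atp1b2, which was high in the same libraries, and for Atp1b3, the gene with the narrowest spread. They read 5′ to 3′ on the minus strand of GRCr8, at chr1:95404723-95404972 (Fxyd5, the upstream one of its listed starts), chr10:54823709-54823958 (Atp1b2) and chr8:105821152-105821401 (Atp1b3). Capitals mark matches on either strand, none of which overlap. TATAAA is the core promoter box bound by the general transcription machinery. CCAAT is the box that the nuclear factor Y complex is known to bind. GGGCGG is the box known for factors of the Sp family.
Fxyd5: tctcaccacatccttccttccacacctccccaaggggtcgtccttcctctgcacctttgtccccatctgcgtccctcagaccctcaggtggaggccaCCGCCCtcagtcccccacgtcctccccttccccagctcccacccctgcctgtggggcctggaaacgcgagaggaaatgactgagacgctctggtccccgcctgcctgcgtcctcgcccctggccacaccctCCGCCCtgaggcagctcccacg
Atp1b2: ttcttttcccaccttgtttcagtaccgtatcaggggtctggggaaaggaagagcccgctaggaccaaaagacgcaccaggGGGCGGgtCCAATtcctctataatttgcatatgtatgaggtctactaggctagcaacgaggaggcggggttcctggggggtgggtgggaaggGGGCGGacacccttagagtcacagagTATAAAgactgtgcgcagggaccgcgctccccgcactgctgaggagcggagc
Atp1b3: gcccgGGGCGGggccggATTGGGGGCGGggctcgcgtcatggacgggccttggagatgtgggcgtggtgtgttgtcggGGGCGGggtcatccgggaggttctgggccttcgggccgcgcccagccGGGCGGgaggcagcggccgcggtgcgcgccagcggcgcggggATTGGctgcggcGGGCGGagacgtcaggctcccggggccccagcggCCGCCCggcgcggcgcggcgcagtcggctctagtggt

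Fxyd5 held GGGCGG at 2 places and neither other motif, and the window of its other listed start held none of the 3 motifs. Atp1b2 held TATAAA at 52 bases before the start, CCAAT once and GGGCGG at 2 places, and Atp1b3 held CCAAT at 2 and GGGCGG at 6 places. Of 33469 RefSeq windows of that length, 12.9% held TATAAA, 34.0% CCAAT and 30.5% GGGCGG. GC made up 67.2% of the Fxyd5, 58.0% of the Atp1b2 and 79.6% of the Atp1b3 window. A match describes letters and is no evidence of binding.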

How the data were processed

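RNA was extracted from 12 mammary glands with a kit for fatty tissue and sequenced by the study. The authors deposited raw read counts per Entrez gene, 1 column per library; the submitters' processing notes name bcl2fastq, CASAVA 1.8, TopHat, DESeq and the rn4 build, and the counting program and use of strand are not given in the sources used here. Symbols came from RefSeq (GRCr8) for 16351 of 16511 genes. The main test was the quasi-likelihood F test of edgeR 4.0.16 (R 4.3.3; TMM, filterByExpr, Benjamini-Hochberg over 9382 genes, threshold 0.05), run for HFB against CTL and for the slope on a marker score (mean log2 CPM, prior count 2) with diet as a covariate. Standard errors of edgeR are the log2 value divided by the root of its F statistic. Alternatives were DESeq2 1.42.0, limma-voom 3.58.1, DESeq2 size factors, other filters, left-out libraries, a prior count of 0.5 and covariates. Figures and promoter windows were made in Python 3.11.15.

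The named genes were the 8 genes, the pathway and marker lists, and for each of the 8 the 3 other genes with the closest pattern. These genes and lists were chosen with earlier results of these data known. Leaving out HFB 6 and CTL 14 together, also for the slopes of the pathway genes, and adding the other 3 scores to a slope, were chosen after seeing the data. The scripts were tested on simulated data. Over all 66 pairs of the 12 libraries, counts differed by at least 6.69 in chi-square per degree of freedom, more than counting error gives. None was therefore a resequencing of another. The measure cannot show whether libraries share a gland or litter. Genes that share reads with near-identical copies were not separated.

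The values of some single genes of the pathway list and one neighbouring gene are not reported here, though the counts over that list include every gene tested.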

Additional observations from a re-analysis of the deposited data

Results flagged for a closer look

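In each diet, values of the 8 genes and of 4 tissue scores were searched for a library far from the rest of its group. Of 24 groups of 6 libraries examined, 6 held one, and chance alone gives about 1 in 20. Fxyd5 stood at 281 CPM in HFB 6, where the next HFB library had 46.6 CPM, and at 212 CPM in CTL 14, where the next CTL library had 31.1 CPM. Atp1b2 stood at 43.1 CPM in HFB 6, with 22.1 CPM next. The adipocyte score was 9.58 in HFB 6 and 9.58 in CTL 14, with 10.8 and 10.9 as the nearest values of their groups. The lymphoid score was 6.83 in CTL 14, with 2.44 next. All of these belong to the same pair of libraries. Slopes of Fxyd5 and Atp1b2 without that pair are given above. What set the pair apart in the levels of these genes was not tested. No Fxyd2 value stood apart in this way.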

How the results depend on the processing

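Diet calls stayed at 0 under the 19 alternatives run. The log2 difference of Fxyd2, a description of the choice, ran from 0.64 to 0.77 with each library left out. No paired analysis was run, since the library numbers do not show whether litters were paired across the diets. Every HFB library number is lower than every CTL number, so library order and diet cannot be told apart. The sign of several small differences turned: Fxyd3 was -0.087 in limma-voom, and with 3 scores as covariates Fxyd5 was -0.025 and Atp1b1 -0.054. With each library left out the differences ran from 0.088 to 0.48 (Fxyd1), -0.22 to 0.49 (Fxyd3), -0.93 to 1.69 (Fxyd5), -0.34 to 0.033 (Fxyd6), -0.12 to 0.14 (Atp1b1), -0.51 to 0.18 (Atp1b2) and 0.022 to 0.12 (Atp1b3). The genes called on the epithelial score, 116 in all, were 427 in DESeq2, 66 in limma-voom, 63 with at least 10 counts in every library and 66 without HFB 6 and CTL 14, and 51 to 789 with each library left out. Those on the skeletal muscle score, 77, were 27 with at least 10 counts in every library. On the adipocyte score, 5148 became 0 without HFB 6 and CTL 14 and 3162 to 5457 with each library left out, and on the lymphoid score 2419 became 74 and 325 to 3544. The cause was not tested where fewer genes or libraries do not show it. The adipocyte slope of Atp1b2 was 0.28 without HFB 6 and CTL 14, and with the other 3 scores as covariates it was 0.12, that of Fxyd1 0.19, that of Fxyd6 0.023, that of Fxyd3 -1.68 and that of Fxyd5 -0.97, none of which passed. Without HFB replicate 6 the adipocyte slopes of Fxyd1 (-0.24), Fxyd3 (-1.21) and Atp1b2 (-0.77) did not pass (edgeR adjusted p = 0.41, 0.053 and 0.065). Nor did that of Fxyd6 (-0.67) without CTL replicate 14 (edgeR adjusted p = 0.075). The slopes of Fxyd3, Atp1b2 and Fxyd6 were then about as large as with all libraries in. That of Fxyd1 was smaller, and without CTL replicate 14 it was -0.89 and passed (edgeR adjusted p = 0.0044). Fxyd2 rests on 24 to 69 counts per library and Fxyd3 on 12 to 115.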
